A study of Mus musculus with 3 samples.

Results

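Cytoplasmic ribosomal protein genes were examined as a group of short, heavily expressed messenger RNAs in a map of RNA contacts of Tra2β in the mouse testis. The group was defined by symbol and annotation alone, with no measured value. Protein-coding genes of GENCODE vM39 were taken whose symbol had the form of Rpl or Rps followed by a number, with an optional final letter a, l, x or y, together with Rplp0 to Rplp2 and Rpsa. Of 84 symbols that matched, 1 gene with a single exon, Rps4l, was left out. The remaining 83 genes, 51 for proteins of the large ribosomal subunit and 32 for proteins of the small subunit, were compared with the other 20329 of 20412 protein-coding genes with more than 1 exon. Rpl10l, a retrogene copy of Rpl10 with its coding sequence in 1 exon, stayed in because its canonical transcript had 2 exons. Fau, Rack1 and Rpl36al, which also encode ribosomal proteins or close copies of one, are among genes that did not match the symbol pattern and are described separately.

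The samples were testes of adult wild type mice, labelled as mixed in cell type, that had been minced, irradiated with ultraviolet light and immunoprecipitated with a polyclonal antibody against Tra2β. There was 1 group of 3 biological replicates, with 348033, 619571 and 488719 crosslinks in replicates 1, 2 and 3, where a crosslink is 1 unique cDNA at 1 nucleotide. No input library, control antibody, second genotype or RNA abundance was measured in the files used here, so proportion could be examined only against length and against other genes, and not against mRNA level. All 6 germ cell markers, among them Ddx4, Tnp1 and Prm1, had exonic crosslinks in every library, and of 3 genes that mark other tissues Alb and Ins2 had none and Myh7 had 1, 2 and 0. Markers of Sertoli cells (3 of 3) and Leydig cells (3 of 3) also had at least 1 exonic crosslink. The Leydig cell marker Hsd3b6 had only 1, 0 and 0, no more than Myh7. Exonic density is given as CPM per kb, that is, exonic crosslinks scaled to the library total as CPM and divided by exonic length. It was 3.61 ± 0.809 in the Sertoli and 11.6 ± 8.55 in the Leydig cell markers, against 82.1 ± 54.0 for the germ cell markers. Replicate 2 stood apart, because 13.1% of its crosslinks lay in exons of coding genes against 27.0% and 38.0% in replicates 1 and 3. The pooled share and the pooled exon to intron ratio are therefore also given without replicate 2, and most other pooled values library by library.

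Ribosomal proteins assemble with ribosomal RNA in the nucleolus and make up most of the protein mass of the ribosome. Their mRNAs begin with a terminal oligopyrimidine tract and are among the most abundant in dividing cells. The genes have short introns, many of which carry small nucleolar RNA (snoRNA) genes that guide the modification of ribosomal RNA, and they have left many processed pseudogenes in the genome. Tra2β is related to the SR proteins and promotes splicing of exons by binding GAA-rich RNA within them.

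The contacts are shown first by the stretches of coding sequence that held the most of them. The 5 windows below are the non-overlapping stretches of 30 nt in coding sequence of these genes with the most crosslinks over the 3 libraries, read 5′ to 3′ from GRCm39 on the strand of the gene, with each GAA in capitals. They lie in Rpl26 at chr11:68795287-68795316, in Rpl4 at chr9:64085661-64085690, chr9:64084301-64084330 and chr9:64083430-64083459, all on the plus strand, and in Rpl30 at chr15:34442861-34442890 on the minus strand.
Rpl26: aagGAAGAAacgatcgaGAAgatgcaggag
Rpl4, window a: aaggtggttgccaaGAAaccagcagaGAAg
Rpl4, window b: atcatctataatGAAgataatggtatcatc
Rpl4, window c: ggttacaaGAAgaccaaggaggctgttcag
Rpl30: cttgttatGAAaagtggGAAgtacgtgctg
The Rpl26 window held 1, 0 and 9 crosslinks in replicates 1, 2 and 3. The Rpl4 windows held 2, 1 and 6, then 3, 1 and 4, then 0, 1 and 6. The Rpl30 window held 2, 0 and 4. Every one of the 5 contained GAA, searched on the strand of the gene, and so did 56.8% of all 32653 windows of 30 nt within coding exons of these genes. In each window replicate 3 gave the most crosslinks, and the Rpl26 window drew 9 of 10 from it.

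Most ribosomal protein genes were contacted, but lightly. Over the 3 libraries 66 of 83 (79.5%) had at least 1 exonic crosslink, against 65.0% of other genes. The sum was 107, 74 and 248 exonic crosslinks in 116216 nt of exon, and the median gene had 2. Only 10 genes had 10 or more, 21 had 4 to 9, 35 had 1 to 3 and 17 had none, and 19 had a crosslink in all 3 libraries. The crosslinks fell on 397 positions, of which 11 were seen in more than 1 library and 0 in all 3, with at most 3 crosslinks at a position.

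The median exonic density was 1.17 CPM per kb (as a mean over the 3 libraries), against 0.467 CPM per kb for other genes, and 56 of 83 genes were above that value. The ribosomal protein transcripts were short, with a median spliced length of 1096 nt against 3040 nt. The other genes of up to 1500 nt made a closer comparison by length. Of these 3563 genes 42.7% had an exonic crosslink, and their median density was 0. A typical ribosomal protein gene was thus above a typical coding gene in exonic density. The pooled values below, which sum crosslinks and length over genes and so weigh each density by length, ran the other way.

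**Figure D1:**
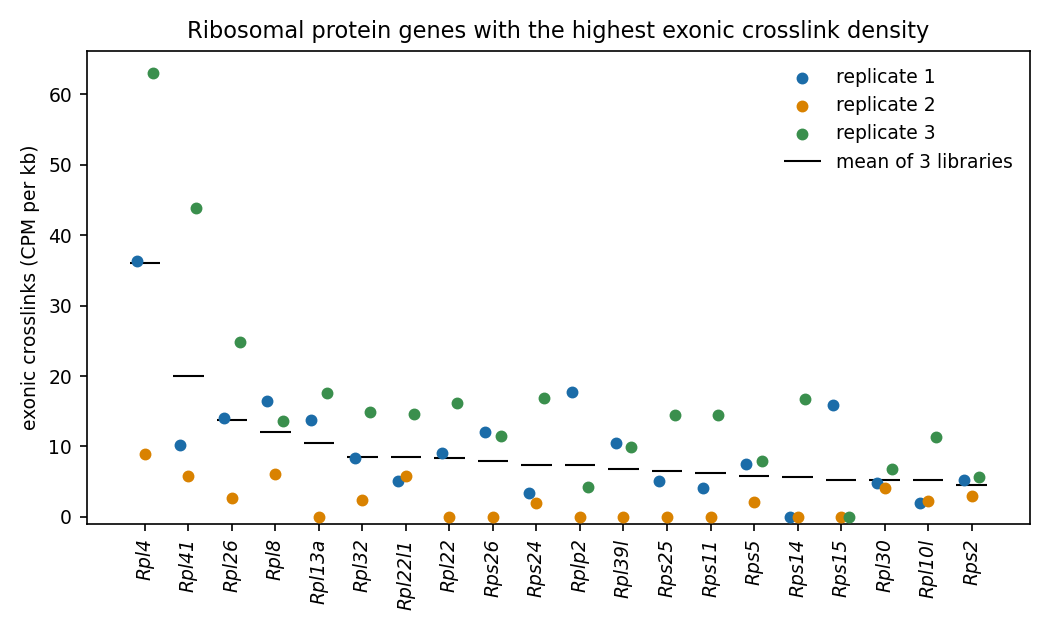
Exonic CPM per kb (y axis) in the 20 ribosomal protein genes with the highest mean (x axis). Each point is 1 of 3 libraries and the line is their mean; Rpl4 is highest, at 36.1, and replicate 2 lies at 0 in Rpl13a, Rpl22, Rps26 and Rplp2 among others.

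Pooled over the group, exonic crosslinks fell short of their share of length. Ribosomal protein exons made up 0.157% of all coding gene exon length and held 0.114%, 0.0913% and 0.133% of exonic crosslinks in replicates 1, 2 and 3. The ratio of these shares was 0.725 (95% Clopper-Pearson interval 0.594 to 0.876), 0.581 (0.456 to 0.729) and 0.849 (0.747 to 0.961), with a mean of 0.718 ± 0.134 (SD, n = 3). Each interval ended below 1, and it covers counting error only. Without replicate 2 the mean was 0.787. Against other genes of up to 1500 nt alone the ratio was 0.644 ± 0.0502, and without Rpl4 it fell to 0.573 ± 0.0745.

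A part of these exons could not be told from copies elsewhere in the genome. Of their exonic nucleotides 64.0% began a stretch of 35 nt of spliced sequence that occurred at 1 place in the genome, against 92.9% in other genes, and 37 of the 83 genes were below 50% by this measure. Their introns stood at 96.4%. Genes with no exonic crosslink had a median of 40.0%, genes with an exonic crosslink 57.8%, and the 10 genes with the most 74.8%. With both crosslinks and length restricted to such nucleotides, the ratio of shares was 0.800 ± 0.265, at 0.911 (95% interval 0.734 to 1.12), 0.497 (0.360 to 0.670) and 0.991 (0.858 to 1.14) in replicates 1, 2 and 3. Only in replicate 2, the library that stood apart, did the interval then end below 1. How the authors treated reads that map to several places was not given in the sources used here, and the part of copies in the low values was not tested beyond this restriction.

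Rpl4 stood first. It encodes a protein of the large subunit whose long extension lines the tunnel through which the new peptide leaves, and it lies at chr9:64080618-64086351 on the plus strand. It had 25, 11 and 61 exonic crosslinks over 1980 nt and 1, 6 and 3 intronic crosslinks over 3754 nt. Its exonic density was 36.1 ± 27.0 CPM per kb (SD, n = 3), which placed it 315th among 20412 genes, and it held 22.6% of the exonic crosslinks of the group. All 3 libraries gave more in exons than in introns, and in no other ribosomal protein gene were as many as 5 exonic crosslinks found in every library.

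Within Rpl4 the crosslinks spread over the transcript. Exons 5, 6 and 7 of 10 had 2, 3 and 6, then 3, 1 and 9, then 3, 2 and 9 crosslinks in replicates 1, 2 and 3, over 125, 130 and 157 nt. The last exon, of 847 nt, had 11, 4 and 11, and exon 3, of 107 nt, had none in any library. In each library an exact binomial test (two-sided, with exonic length as the expectation) set each exon against the rest of its transcript, with adjustment over 58715 exons of all genes with at least 20 exonic crosslinks, and called when the test passed in all 3. Over all these exons 0.221% were called higher and 0.368% lower. Among ribosomal protein genes only Rpl4 and Rpl26 had enough crosslinks to enter, and 0 of their exons were called. In replicate 3 alone the last exon of Rpl4 was lower (adjusted p = 0.00458 by the exact binomial test), the first exon of Rpl26 was lower, with 1, 0 and 1 crosslinks in 897 nt (adjusted p = 2.07e-05 by the same exact test), and the last of the 3 exons of Rpl26 was higher, with 3, 1 and 13 crosslinks in 196 nt (adjusted p = 6.31e-07 by the same exact test).

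**Figure D2:**
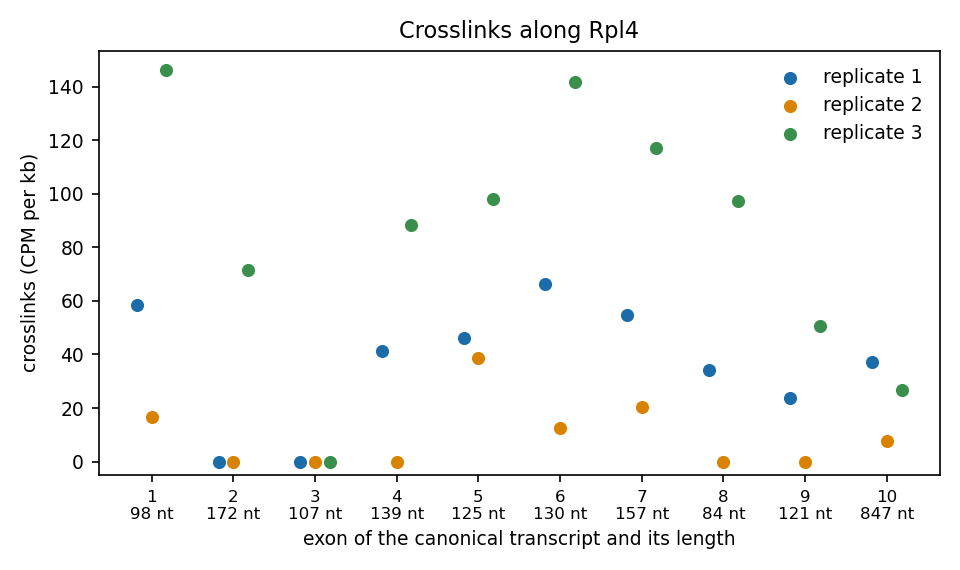
CPM per kb (y axis) in the 10 exons of the canonical Rpl4 transcript, with the length of each exon below its number (x axis). Points are the 3 libraries; exon 3 is at 0 in all of them, and replicate 3 is highest in every other exon except the last.

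Whether single genes were crosslinked beyond their length was tested with edgeR, by comparing the exonic crosslinks of each gene with its share of all coding gene exon length in each library. Of 20297 genes tested 11.8% were called higher and 47.7% lower at an adjusted p under 0.05. Of 82 ribosomal protein genes tested 5 (6.10%) were called higher and 10 (12.2%) lower. Their median log2 fold was -1.05, against -2.51 over all genes tested, and 24 were above 0. These shares are given as a description, and whether they differ from those of all genes was not tested. The share called lower depends on transcript length, because short genes without any crosslink were not called, as described below.

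The 5 genes called higher all encode proteins of the large subunit, which also supplied most of the genes tested and most of those called lower. Of 51 large subunit genes tested 5 were called higher and 8 lower, and of 31 small subunit genes 0 and 2. Whether the subunits differ in these calls was not tested. Rpl4 had 97 crosslinks where 9.66 were expected by length, a log2 fold of 3.26 ± 0.31 (SE, adjusted p = 4.25e-24 by edgeR). Here and below the SE is approximate, being the absolute log2 fold divided by the square root of its F statistic. Rpl41, whose product is a very short basic peptide, had 2, 2 and 12 crosslinks in 560 nt, a log2 fold of 2.35 ± 0.56 (SE). Rpl26, at chr11:68792344-68797822, had 6, 2 and 15 in 1234 nt, a log2 fold of 1.85 ± 0.48 (SE). In both genes replicate 3 supplied most of the crosslinks. Rpl8, at chr15:76788271-76790514, had 6, 4 and 7 in 1051 nt, a log2 fold of 1.64 ± 0.49 (SE), and was the most even of the 5 across libraries. Rpl13a had 5, 0 and 9 in 1047 nt, a log2 fold of 1.37 ± 0.60 (SE). Only Rpl4 was called higher in all 3 settings that left out 1 library and by DESeq2 and the exact binomial test. Without replicate 1 the count was 2 (Rpl4 and Rpl41), without replicate 2 it was 1, and without replicate 3 it was 2 (Rpl4 and Rpl8).

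The crosslinks of these genes lay in different places. In Rpl41 15 of 16 were in the first exon and 14 in its 5′ UTR of 193 nt. In Rpl26 17 of 23 were in the last exon, while its annotated 5′ UTR of 729 nt held 2. In Rpl8 17 of 17, and in Rpl13a 13 of 14, were in coding sequence. Below these 5 in density, Rpl32 had 4, 2 and 10 exonic crosslinks, of which 10 were in a first exon of 978 nt that also contains the snoRNA gene Snora7a, itself with 1, 1 and 0. Rpl22l1 had 1, 2 and 4, Rpl22 had 2, 0 and 5, Rps26 had 3, 0 and 4 and Rps24 had 2, 2 and 14. These last 5 genes completed the 10 highest mean densities, from 8.57 ± 6.30 CPM per kb in Rpl32 to 7.39 ± 8.25 in Rps24, so that their spread between libraries exceeded the differences between them, and none was called in this test.

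**Figure D3:**
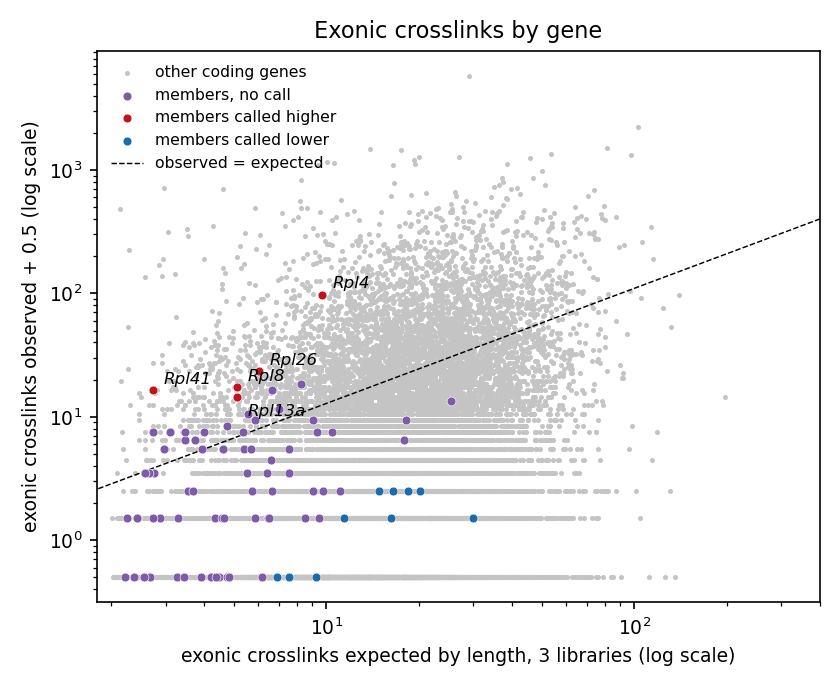
Exonic crosslinks observed over 3 libraries plus 0.5 (y axis, log scale) against the number expected by exonic length (x axis, log scale) for each gene tested. Grey points are other coding genes, coloured points are ribosomal protein genes by their call, and on the dashed line both numbers are equal; 5 ribosomal protein genes were called higher and 10 lower.

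The 10 genes called lower were mostly those with long annotated 3′ UTRs. Of the 10, 8 had 3′ UTRs of more than 1000 nt in the canonical transcript, against 18 of all 83, and Rpl37, Rpl31, Rpl29, Rpl37a, Rpl28, Rpl15 and Rpl39 were among them. The canonical Rpl37 transcript, for example, had 6111 nt, of which 5762 nt were 3′ UTR and 291 nt coding sequence, and it held 0, 1 and 0 crosslinks where 29.8 were expected. The single crosslink was in coding sequence. Rpl31 had 0, 1 and 1 where 20.1 were expected. Rps19, Rpl39 and Rpl3l had 0 crosslinks in all libraries where 7.56, 9.22 and 6.93 were expected by length. Rpl27a also had 0, where 6.18 were expected, and was not called (adjusted p = 0.0555 by edgeR). No tested gene with 0 crosslinks and a lower expectation was called either. Lower calls were thus open only to the longer transcripts, and the link with long 3′ UTRs cannot be separated from length here. When coding sequence replaced exons, which was chosen after these lengths were seen, 3 genes were called higher (Rpl26, Rpl4 and Rpl8) and 1 lower (Rpl3l) of 78 tested, and over all genes 1836 were called higher and 5792 lower of 20140. None was called lower by DESeq2, by the exact binomial test, or without any 1 of the libraries. Lower calls over all genes went the same way, from 9685 to 0 with DESeq2, to 1834 with the exact binomial test, and to 37, 55 and 73 without replicates 1, 2 and 3. The log2 fold of Rpl37 was -4.34 with all libraries and -3.91, -5.56 and -3.32 without each of them in turn. Whether the long 3′ UTRs are present in these testes was not tested.

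Exons were compared with introns next. Pooled over the group, exonic density was 5.21, 1.38 and 5.30 times intronic density in replicates 1, 2 and 3, a mean of 3.96 ± 2.24 (SD, n = 3). For other genes the ratio was 8.95, 4.40 and 14.8, a mean of 9.38 ± 5.22, and for other genes of up to 1500 nt it was 8.18 ± 5.42. In every library the ratio was lower in ribosomal protein genes than in other genes, although the ranges over libraries overlapped. With 3 libraries an exact two-sided sign-flip permutation test cannot go below p = 0.25, and none was run. Without replicate 2 the means were 5.25 and 11.9.

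Both sides of the ratio differed. Exonic crosslinks averaged 1.23 ± 0.795 per kb in ribosomal protein genes and 1.63 ± 0.773 in other genes. Intronic crosslinks averaged 0.347 ± 0.150 per kb against 0.187 ± 0.0557, so that introns of ribosomal protein genes held 1.82 ± 0.563 times their share of intron length, at 1.24, 1.85 and 2.37 in replicates 1, 2 and 3. The 95% Clopper-Pearson interval of replicate 1, 0.872 to 1.72, included 1. Against other genes of up to 1500 nt alone the values were 0.914, 1.36 and 1.66. Introns of ribosomal protein genes were short, with a median total of 2115 nt per gene against 15071 nt. Because exons make up more of these genes, exonic crosslinks were still 74.8% (95% Clopper-Pearson interval 66.9 to 81.7), 44.0% (36.4 to 51.9) and 75.2% (70.1 to 79.7) of all their crosslinks, against 42.4%, 26.5% and 54.9% in other genes.

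**Figure D4:**
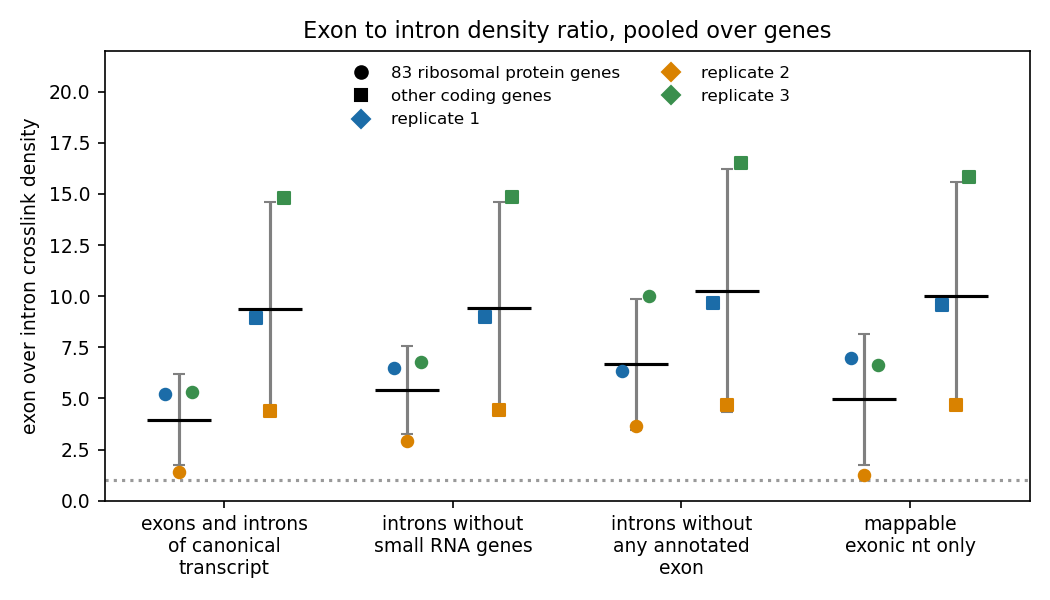
Ratio of exonic to intronic crosslink density (y axis), pooled over 83 ribosomal protein genes (circles) and over other coding genes (squares), in 3 libraries and under 4 definitions of the regions (x axis). Lines are means and error bars SD; with the canonical exons and introns the means are 3.96 and 9.38, and with introns free of any annotated exon they are 6.68 and 10.3.

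In single genes exons mostly exceeded introns. Of 9224 genes with at least 10 crosslinks, 58.5% were called higher in exons than in introns by edgeR and 0.217% lower. Among 22 ribosomal protein genes tested 6 (27.3%) were called higher, with a median log2 fold of 2.01 against 2.32 over all genes tested. The order of these medians depended on the setting. It was 3.30 against 2.69 without replicate 2, 2.60 against 2.33 with small RNA genes removed from introns, 4.16 against 2.48 with all annotated exons removed from them and 2.51 against 2.35 with nucleotides in 1 gene only, over 13 to 16 ribosomal protein genes that could then be tested. The genes called higher were Rpl32, with a log2 fold of 5.69 ± 1.39 (SE), Rpl26 with 4.57 ± 0.99, Rpl4 with 3.95 ± 0.73, Rpl8 with 3.83 ± 1.08, Rpl41 with 3.40 ± 1.15 and Rps24 with 2.27 ± 0.84. Rpl32 had 0 intronic crosslinks in all libraries, so its fold depends on the prior count of the fit. Without replicate 1 or replicate 3 0 ribosomal protein genes were called higher by edgeR, with 5 and 2 at an unadjusted p under 0.05, and over all genes the number called higher dropped from 5400 of 9224 to 1070 of 8365 and 1520 of 7816. The folds stayed large, at 3.48 and 3.19 for Rpl4 and 5.58 and 3.23 for Rpl8 without replicates 1 and 3, and 4.26 for Rpl26 and 5.84 for Rpl32 without replicate 1. Without replicate 2 the count was 10. Rpl7a was called lower in exons, and is described below.

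No ribosomal protein gene was called above the exon to intron ratio of other genes with all 3 libraries. In a fit where the expected ratio was that of the other genes in each library, 5.11% of 9224 genes were called higher and 13.9% lower. Of the 22 ribosomal protein genes tested 0 were called higher by edgeR, 0 had an unadjusted p under 0.05 in that direction, and DESeq2 and the exact binomial test also gave 0, while 6 had a log2 fold above 0. The median log2 fold was -1.01 against -0.66 over all genes tested. With annotated exons removed from introns it was 1.3 against -0.63, over 14 ribosomal protein genes. Of the same 22 genes 3 (13.6%) were called lower, a share near that of all genes. Without replicate 2 Rpl4 was called higher, and Rpl17 and Rpl10l were called lower, of 13 ribosomal protein genes tested. Rpl10l has no annotated small RNA gene in its intron.

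The 3 genes called lower with all 3 libraries were hosts of snoRNA genes. Rpl7a had 0, 0 and 0 exonic and 2, 10 and 6 intronic crosslinks, a log2 fold of -7.07 ± 1.34 (SE, adjusted p = 6.45e-06 by edgeR). Only 8.21% of its exonic nucleotides began a unique stretch of 35 nt. Rpsa, which encodes a protein of the small subunit also known as a laminin receptor, had 0, 1 and 0 exonic and 0, 11 and 4 intronic crosslinks, a log2 fold of -5.46 ± 1.28. Rpl17 had 0, 2 and 3 exonic and 3, 3 and 5 intronic crosslinks, a log2 fold of -3.78 ± 1.05. Of their intronic crosslinks 10, 13 and 8 lay in annotated small RNA genes. With those nucleotides removed the genes kept 8, 3 and 8 crosslinks in exons and introns together, below the minimum of 10, and could not be tested. They thus entered the test only through crosslinks in small RNA genes. Whether hosts were called lower more often than other genes was not tested.

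Small RNA genes held much of the intronic signal. The canonical introns of 30 ribosomal protein genes contained 63 annotated small RNA genes, of which 36, in 20 hosts, had a crosslink. They made up 3.01% of intron length in the group and held 22.2% (95% Clopper-Pearson interval 10.1 to 39.2), 54.3% (43.7 to 64.6) and 24.4% (15.6 to 35.1) of its intronic crosslinks in replicates 1, 2 and 3. Their density was 9.22, 38.3 and 10.4 times that of the rest of the introns. Every library showed the excess, and it was greatest in replicate 2, the library with the lowest exonic share. In other genes small RNA genes made up 0.0182% of intron length and held 0.183%, 0.839% and 0.196% of intronic crosslinks.

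**Figure D5:**
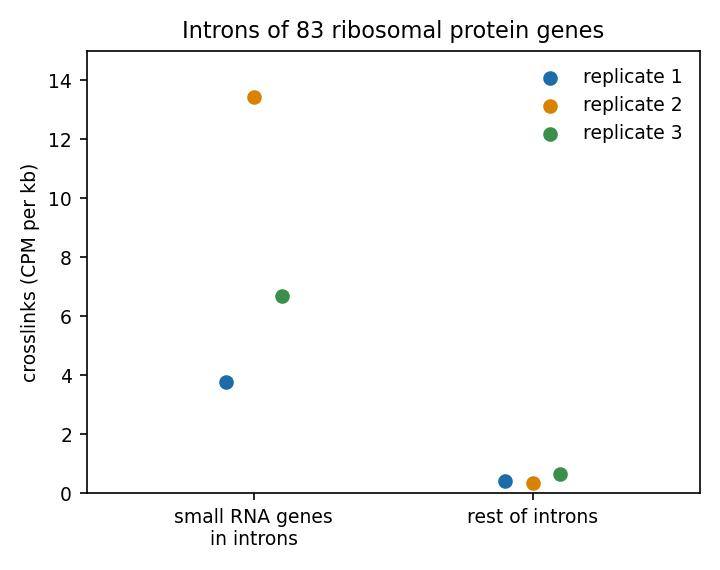
CPM per kb (y axis) in small RNA genes within introns of 83 ribosomal protein genes and in the rest of those introns (x axis), with 1 point per library. Small RNA genes lie above the rest of the introns in all 3 libraries, at 3.75, 13.4 and 6.68 against 0.407, 0.351 and 0.642.

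By host, Rpsa had 0, 9 and 4 crosslinks in its small RNA genes, Rpl7a 2, 6 and 2, and Rpl17 1, 2 and 5. Within Rpsa, Snora62 had 0, 4 and 3, and within Rpl27a, Snora3 had 0, 2 and 3. Both are H/ACA snoRNAs, a class that guides the conversion of uridine to pseudouridine. The stretch of 30 nt with the most crosslinks in Snora3 is given as an example of a contacted snoRNA, and it lies on the plus strand of GRCm39 at chr7:109119397-109119426.
Snora3: tgaccttattcactggctgtgtggactttc
It held 0, 2 and 3 crosslinks and contains no GAA, while 3 of 6 stretches chosen in the same way contained it. These 6 lie in small RNA genes with at least 4 crosslinks. Another such gene, Gm23301 in Rpl17, had 1, 1 and 5 crosslinks and was not among them. In the 30 hosts introns had 0.311, 1.05 and 0.608 crosslinks per kb, and in the 53 genes without a small RNA gene 0.105, 0.150 and 0.293.

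With small RNA genes removed from introns, the exon to intron ratio of ribosomal protein genes was 6.50, 2.93 and 6.80, a mean of 5.41 ± 2.15. Their introns then held 1.24 ± 0.529 times their share of length, at 1.00, 0.88 and 1.85 in replicates 1, 2 and 3. With every annotated exon on the strand removed from introns the ratio was 6.68 ± 3.20, against 10.3 ± 5.94 for other genes. The introns of ribosomal protein genes then held 1.08 ± 0.329 times their share of length, at 1.11, 0.738 and 1.40. The mean exon to intron ratio stayed below that of other genes in all of these settings, by a smaller margin.

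Along the transcript, coding sequence of ribosomal protein genes had 5.20 ± 3.19 CPM per kb (SD, n = 3), close to the 5.89 ± 2.75 of other genes. Their 5′ UTRs had 3.77 ± 3.01 against 1.94 ± 0.973, higher in replicates 1 and 3 but lower in replicate 2, at 0.699 against 0.938, and their 3′ UTRs 0.430 ± 0.163 against 1.37 ± 0.743. Few genes supplied much of the 5′ UTR signal. Of its 82 crosslinks Rpl41 held 14, Rpl4 10, Rps25 9, Rps24 8 and Rpl32 7. Coding sequence exceeded 3′ UTR 17.1, 5.41 and 13.6 times in replicates 1, 2 and 3, a mean of 12.1 ± 6.02, against 4.61 ± 0.982 in other genes. The ranges overlapped through replicate 2, where other genes had 5.71. First exons had 0.737 ± 0.264 times the density of internal exons, against 0.338 ± 0.00511, and exceeded the ratio of other genes in all 3 libraries. Of the 101 crosslinks in first exons, Rpl41 held 15, Rpl4 10 and Rpl32 10. Last exons had 0.245 ± 0.0525 times the density of internal exons, against 0.247 ± 0.0367. The long annotated 3′ UTRs described above enter the first of these comparisons.

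The coding sequence of these genes was richer in GAA, at 3.00 per 100 nt against 2.32 in other genes, and 55.4% of its bases were purines against 51.9%. Rpl4 and Rpl26 had 4.14 GAA per 100 nt of coding sequence, and Rpl41 had 5.80. The other genes called higher by length, Rpl13a and Rpl8, had 3.45 and 2.20. In Rpl41 only 1 of 16 exonic crosslinks lay in coding sequence. Its whole spliced transcript had 1.96 GAA per 100 nt, against 2.06 in other genes. Exonic nucleotides with GAA within 10 nt were crosslinked 1.58, 2.28 and 1.45 times as densely as the others in ribosomal protein genes, a mean of 1.77 ± 0.449. In other genes the ratio was 1.93 ± 0.272, which differed by less than the spread between libraries. All 3 libraries were above 1. Without Rpl4 the ratio was 1.13, 2.30 and 1.23. In replicates 1 and 3 the 95% Clopper-Pearson intervals of the share of crosslinks near GAA, 26.2% to 48.0% and 31.5% to 45.9%, then included the 33.8% of exonic nucleotides near GAA, and with a window of 5 nt the ratio in replicate 1 was 0.933.

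The 4 ribosomal protein genes on the X chromosome had no crosslinks, as had 5 autosomal ones, Rplp1 and Rpl3l among them. Rpl10, Rpl36a, Rpl39 and Rps4x had 0 exonic and 0 intronic crosslinks in all 3 libraries, over 4231 nt of exon of which 45.8% began a unique stretch of 35 nt. That share was 82.6% in Rpl39 and 18.7%, 13.1% and 15.3% in Rpl10, Rpl36a and Rps4x. A count of 0 allows up to 3 counts in a library, which is 8.62, 4.84 and 6.14 CPM. The X chromosome is silenced during male meiosis, and all 835 coding genes on it with more than 1 exon had 1.36 ± 0.681 exonic CPM per kb, against 3.61 ± 1.73 for autosomal genes. In this bulk tissue fewer cells of a type, less RNA per cell and less contact by Tra2β cannot be told apart. The autosomal copies that are used in the testis were contacted. Rpl10l, a copy of Rpl10, had 1, 2 and 8 exonic crosslinks, a log2 fold of 0.61 ± 0.75 (SE) over expectation by length, and Rpl39l, a copy of Rpl39, had 3, 0 and 4, a log2 fold of 0.73 ± 0.77. Neither was called. Rpl10l also had 2, 0 and 1 crosslinks in an intron of 472 nt, which gave it an intronic density of 5.50 ± 6.17 CPM per kb, next after that of Rpl7a at 6.94 ± 3.20.

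Other diverged copies varied. Rpl22l1 had 1, 2 and 4 exonic crosslinks, Rps27l had 0, 0 and 3, Rpl7l1 had 1, 0 and 0, and Rpl3l, which replaces Rpl3 in striated muscle, had none, with 98.8% of its exonic nucleotides unique by the 35 nt measure. Among the acidic proteins of the ribosomal stalk, which recruit the translation factors, Rplp2 had 6, 0 and 2, Rplp0 had 0, 1 and 1 and Rplp1 had 0. Of the genes outside the symbol pattern, Fau had 1, 0 and 4, Rack1 1, 2 and 4 and Rpl36al 2, 0 and 1.

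Large subunit genes had 2.97 ± 1.84 exonic CPM per kb when pooled and small subunit genes 2.12 ± 1.34, with exon to intron ratios of 4.07 ± 2.01 and 3.78 ± 2.57. These differences were within the spread between libraries. All ribosomal protein genes together had 2.68 ± 1.67 CPM per kb. Mitochondrial ribosomal proteins (78 genes) had 1.24 ± 0.619, subunits of oxidative phosphorylation (80 genes) 3.48 ± 2.65, proteasome subunits (38 genes) 6.23 ± 4.51, ribosome biogenesis factors (33 genes) 5.08 ± 2.88, other mRNAs with a terminal oligopyrimidine tract (19 genes) 6.84 ± 4.18, and translation factors (85 genes) 10.2 ± 6.70. In each library the pooled density of ribosomal protein genes was above that of the mitochondrial ribosomal proteins and below those of the other 5 groups. By gene, 13 of 38 proteasome, 9 of 33 biogenesis and 5 of 19 oligopyrimidine tract genes were called higher than expected by length, against 5 of 82 ribosomal protein genes, and 3 of 78 mitochondrial ribosomal protein genes were. Of 85 translation factor genes 19 were called higher and 26 lower. Their pooled density was carried by part of them, as their median gene had 1.22 CPM per kb and 75.3% had an exonic crosslink, against 1.17 and 79.5% in ribosomal protein genes. Mappable exonic length was 64.0% in ribosomal protein genes and between 71.1% and 92.1% in these groups, and its part in the differences was not tested.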

How the data were processed

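Tra2β iCLIP of 3 adult wild type mouse testis libraries was analysed from the crosslink tables. Per the labels, the authors deposited for each nucleotide and strand the count of unique cDNAs after removal of duplicates, neither normalised nor pooled. The submitters' processing notes name Trim Galore 0.6.7, Bowtie 1.3.1, STAR 2.7.9a, UMI-tools 1.1.2 and build mm39, and all sequence names and positions fitted GRCm39. What was done with reads of more than 1 possible origin was not given in the sources used here. Genes with many processed copies may gain or lose counts by it.

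Counts were summed by strand over exons and introns of the Ensembl canonical transcript of GENCODE vM39. Genes were tested with edgeR 4.0.16 in R 4.3.3 (quasi-likelihood, library as a block, offsets for library size and length, Benjamini-Hochberg adjustment over all genes tested, calls at an adjusted p under 0.05). Exon and intron tests required 10 crosslinks and the length test 2 expected crosslinks. The intercept of the length test was tested by a quasi-likelihood F test from edgeR's dispersions. Its log2 folds compare observed with expected counts, with a pseudocount of 0.5, and were taken outside the fit. Each SE of a log2 fold was derived from the fold and the F statistic, and is a rough guide only. DESeq2 1.42.0, exact binomial tests (SciPy 1.17.1), and other filters and definitions were alternatives. The steps were tested on simulated data, with folds of 4 and 0.25 set in exons of known genes. For exons against introns 23.7% and 2.91% of these were recovered, and against the ratio of other genes 40.4% and 16.2%. The length test recovered 90.3% and 21.6%. In the simulated data all other genes were drawn at their expectation with a single fixed dispersion. In the real length test 47.7% of genes were called lower, so recovery there may be less, and it was not measured. A gene without a call may therefore still differ, above all in the lower direction. Depth was 348033 to 619571 crosslinks, and Clopper-Pearson intervals at 95% cover counting error only.

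The genes and gene lists were chosen with earlier results of these data known. Named genes were the 10 with the highest mean exonic density, the 5 with the highest intronic density, up to 10 called in each test, the X-linked, diverged and stalk genes, the 5 with the most crosslinks in intronic small RNA genes, and the 5 coding windows of 30 nt with the most crosslinks. Sequences were read from GRCm39 with GENCODE annotation. Some items that these rules name are not reported here.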

Additional observations from a re-analysis of the deposited data

Results flagged for a closer look

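Crosslinks were also found in processed pseudogenes that carry a ribosomal protein symbol, which entered none of the comparisons. In 237 such pseudogenes outside any other gene on their strand there were 3, 5 and 7 crosslinks in replicates 1, 2 and 3. These are 0.0242, 0.0403 and 0.0565 per kb, below the 0.142, 0.249 and 0.170 per kb in introns of other genes. Among all 317 such pseudogenes there were 7, 23 and 14. They covered 165431 nt, and their density was 0.0423, 0.139 and 0.0846 crosslinks per kb, against a mean of 1.23 in exons of the ribosomal protein genes. How much of the pseudogene sequence can be told from copies elsewhere was not measured, nor was it for introns of other genes. These densities may therefore not be comparable. There are no control libraries to compare with, and whether these cDNAs came from the parent mRNAs was not tested.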

How the results depend on the processing

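With introns free of annotated exons the exon to intron ratio of ribosomal protein genes was 6.68, and with coding sequence in place of exons, chosen after seeing the data, it was 7.71 against 15.7 for other genes. Without Rpl4, also chosen after seeing the data, the ratio of exonic shares was 0.573. Leaving out 1 library in turn gave 0 to 10 genes called higher in exons than introns, 0 called lower, 0 to 1 called higher and 1 to 2 lower than the ratio of other genes, and 1 to 2 called higher and 0 lower than expected by length. For exons against introns, a minimum of 20 crosslinks gave 3 higher (5 genes tested) and the exact binomial test 1, and the lower call of Rpl7a went to 0 with DESeq2, the exact binomial test, that minimum, unique exonic nucleotides, and introns without small RNA genes, annotated exons or overlapping genes. Against the ratio of other genes, the 3 lower calls went to 0 under the same intron definitions, the minimum of 20 and the exact binomial test, since fewer genes were tested in all but the last. For the length test DESeq2 and the exact binomial test gave 1 higher (Rpl4) and 0 lower, and coding sequence gave 3 and 1. Pooled ratios of ribosomal protein genes ranged from 3.29 to 5.25 over libraries left out, their exonic share ratio from 0.653 to 0.787, the small RNA share from 23.3% to 39.3%, coding over 3′ UTR density from 9.52 to 15.4 and the GAA ratio from 1.51 to 1.93. The median log2 fold of ribosomal protein genes against the ratio of other genes turned from -1.01 to 1.3 with introns free of annotated exons, where fewer of them could be tested; no called gene changed direction in any alternative run. No paired analysis was possible because there was 1 group. With 429 exonic crosslinks, 22 of 83 genes could enter the exon and intron tests.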
